A study of Mus musculus with 6 samples.

Results

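The T cell receptor (TCR) alpha locus on mouse chromosome 14 was described here through every row of the deposited gene tables named *Trav*, *Traj* or *Trac*, with the V segments that the alpha and delta chains share left out. This gave 150 of 41457 rows, namely 98 V segments, 51 J segments and the constant region *Trac*. RNA had been sequenced from CD4-CD8- double-negative (DN) thymocytes of 2 groups of mice, with 3 libraries in each. The study describes these DN cells as freshly isolated. All library titles carry a minus sign, which a figure of the study uses for untreated cells. Nc1Bio mice carried a bacterial artificial chromosome transgene with the *Nfatc1* gene (transcription factor NFATc1) added in a form tagged for biotin at the C terminus of NFATc1/A, together with the biotin ligase BirA. BirA mice, whose genotype the labels give as WT, carried the ligase from the Rosa26 locus and no transgene. The study's methods state that its mice were 4 to 6 weeks old, sex- and age-matched and on a C57/B6 background. DN cells were obtained by magnetic depletion of CD4+ and CD8+ cells and not by a sort for a TCR-negative stage, so the preparation can hold other cells that lack both co-receptors. The labels do not say that the 3 libraries of a group came from separate animals, so each p-value refers to the spread from library to library, which may be technical.

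A TCR alpha gene does not exist ready-made in the germline. Recombination by RAG1 and RAG2 joins one of many V segments to one of many J segments, and splicing attaches the joined exon to the constant region, so a finished transcript carries one V, one J and *Trac*. The locus recombines mostly in CD4+CD8+ double-positive thymocytes, after the beta chain, and first joins tend to use V segments near the 3′ end of the V array with J segments near the 5′ end of the J array. Conventional DN thymocytes therefore hold few rearranged alpha genes, whereas invariant natural killer T (iNKT) cells, many of which lack CD4 and CD8, use a single joined chain of *Trav11* or its copy *Trav11d* with *Traj18*. In bulk RNA, fewer cells of a type and less RNA per cell cannot be told apart.

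4 sequences are shown because the results turn on them. They are the last 300 coding bases of each gene in GENCODE vM1 (build NCBIM37), matched to the tables by gene symbol. 42 of the 150 symbols matched, 12 of them with the same gene ID. Of the genes shown, only *Trac* had the same ID there. The IDs and coordinates given below are those of the deposited data and not of the sequence source. None of the 51 J segments had a sequence there. In *Trac*, the capitals mark the middle of its 3 coding exons, and in the V segments they mark the codon of the conserved cysteine at which the junction with J begins. *Trac* (ENSMUSG00000076928, chromosome 14, 54220521 to 54224206, GRCm38, plus strand) is the one segment that all alpha transcripts share. *Trav11d* (ENSMUSG00000095088, 52824357 to 52824912) belongs to the iNKT receptor, and *Trav17* (ENSMUSG00000096397, 53806639 to 53807115) had the most unique reads of all V segments. *Trav12d-3* and *Trav12n-3* (52929789 to 52930282 and 53240745 to 53241244) are copies whose 347 coding bases are the same letter for letter (the last 300 shown once), so that a read from within them cannot be assigned to one copy.
Trac: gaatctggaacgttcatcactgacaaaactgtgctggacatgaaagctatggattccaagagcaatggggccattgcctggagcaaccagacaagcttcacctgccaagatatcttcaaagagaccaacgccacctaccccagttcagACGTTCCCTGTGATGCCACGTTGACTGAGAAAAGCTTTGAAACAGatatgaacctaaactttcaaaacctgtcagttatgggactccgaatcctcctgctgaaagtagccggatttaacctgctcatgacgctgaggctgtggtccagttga
Trav11d: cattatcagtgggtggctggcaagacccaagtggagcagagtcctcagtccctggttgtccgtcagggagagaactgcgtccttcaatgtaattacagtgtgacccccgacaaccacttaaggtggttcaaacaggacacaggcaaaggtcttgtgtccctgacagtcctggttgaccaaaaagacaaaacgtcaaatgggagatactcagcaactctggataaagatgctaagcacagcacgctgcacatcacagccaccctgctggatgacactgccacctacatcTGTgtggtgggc
Trav17: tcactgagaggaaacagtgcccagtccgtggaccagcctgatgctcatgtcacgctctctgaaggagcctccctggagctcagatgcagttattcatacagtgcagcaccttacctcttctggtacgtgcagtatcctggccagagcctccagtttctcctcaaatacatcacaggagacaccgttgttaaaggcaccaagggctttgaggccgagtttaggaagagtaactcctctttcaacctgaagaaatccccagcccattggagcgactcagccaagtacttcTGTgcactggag
Trav12d-3 and Trav12n-3: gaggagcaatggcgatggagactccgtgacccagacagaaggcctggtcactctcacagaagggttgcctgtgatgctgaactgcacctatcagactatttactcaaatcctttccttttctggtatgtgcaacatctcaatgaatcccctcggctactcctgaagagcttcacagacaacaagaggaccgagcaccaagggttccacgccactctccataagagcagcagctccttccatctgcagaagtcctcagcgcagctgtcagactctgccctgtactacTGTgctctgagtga

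The tables give for each gene its unique gene reads and its total gene reads, and the total was never below the unique count in any row. Unique gene reads numbered 11845952, 12807037 and 14013497 for Nc1Bio and 14308406, 15393763 and 13767665 for BirA, or 64.1% to 76.0% of the total gene reads. *Nfatc1* reached 573, 597 and 551 CPM (read counts scaled to library size) in Nc1Bio against 152, 128 and 96.8 CPM in BirA (log2 fold change 2.19, SE 0.16, adjusted p = 0.0141 by edgeR), so the transcript followed the labels. The DN markers were present in all libraries, with 8 of 8 tested. Their summed level was 3797 to 4765 CPM in Nc1Bio and 3099 to 3740 CPM in BirA, with no overlap. Most of this sum was *Dntt*, at 2932, 2499 and 2296 CPM in Nc1Bio and 1933, 1990 and 2208 CPM in BirA. *Il2ra*, *Cd3e*, *Hes1* and *Erg* each overlapped between the groups, while *Dntt*, *Ptcra*, *Notch1* and *Notch3* did not. All 8 markers had a log2 fold change above 0 (median 0.31). By edgeR 4 of 8 were higher at an unadjusted p under 0.05, against 4.31% of all genes, and 0 were called. Red cell transcripts differed widely between libraries of one group, at 17637 to 97448 CPM in Nc1Bio and 20056 to 66088 CPM in BirA, and granulocyte transcripts likewise at 327 to 4983 CPM in Nc1Bio and 414 to 8197 CPM in BirA.

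TCR alpha transcripts were rare in both groups. Of the 150 segments, 65 had at least 1 unique read in the 6 libraries, 91 had at least 1 total read and 59 had none. 132 segments had fewer than 10 unique reads in all libraries together. Only 6 segments passed the filter on low counts on unique reads, and 13 on total reads. A count of 0 allowed up to 3 reads, or 0.192 to 0.250 CPM per library on unique reads, so a segment listed at 0 was not detected at this depth and need not be absent. Such limits and the intervals below cover counting error only.

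*Trac* carried 65.4% of the unique reads of the locus in Nc1Bio and 74.2% in BirA, and its highest Nc1Bio library lay below its lowest BirA library. It had 197, 104 and 198 reads in Nc1Bio against 804, 401 and 379 in BirA, all of them unique. On the CPM scale these were 16.4, 7.89 and 15.3 in Nc1Bio and 58.0, 25.7 and 26.3 in BirA, or 13.2 ± 4.62 against 36.7 ± 18.5 CPM (SD, n = 3 each). BirA replicate 1 stood well above the other two. edgeR's quasi-likelihood test gave a log2 fold change of -1.48 (SE 0.39) and an adjusted p of 0.261 over 12224 genes, so *Trac* was not called. It was called by DESeq2 (adjusted p = 0.000859) and by edgeR when genes of low count were kept (adjusted p = 0.0313). Its log2 fold change without BirA replicate 1 was -0.98, and its adjusted p over all alternatives ran from 0.000859 to 0.616.

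As a class, V segments showed the same direction. Their unique reads summed to 59, 96 and 72 in Nc1Bio against 162, 163 and 152 in BirA, which is 5.92 ± 1.23 against 10.9 ± 0.693 CPM (SD, n = 3 each) and a log2 ratio of -0.88. The lowest BirA library lay above the highest Nc1Bio library. On total reads, V segments summed to 185, 215 and 191 reads in Nc1Bio and 550, 400 and 446 in BirA, a log2 ratio of -1.05. J segments summed to 16, 9 and 12 reads in Nc1Bio and 39, 14 and 21 in BirA (0.980 ± 0.328 against 1.72 ± 0.986 CPM), and here the groups overlapped. The J log2 ratio of -0.81 was -0.26 without BirA replicate 1. Per kilobase of annotated span, *Trac* stood at 3.58 CPM in Nc1Bio and 9.95 CPM in BirA, V segments at 0.103 and 0.190 CPM on unique reads, and J segments at 0.314 and 0.552 CPM. J rows span only 55 to 66 bases, about the length of a read, whereas the span of *Trac* includes introns. Levels per kilobase are therefore not strictly comparable between classes. These class sums were not tested.

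**Figure D1:**
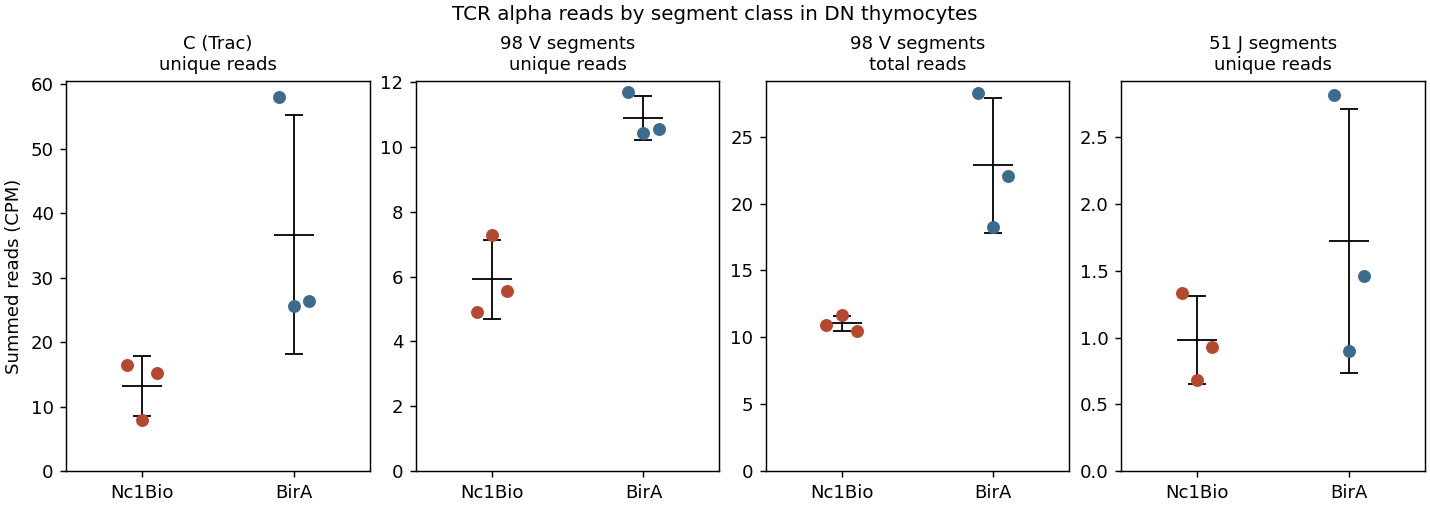
Summed reads in CPM of the constant region, of the 98 V segments (unique and total gene reads) and of the 51 J segments, each point 1 library, with Nc1Bio left and BirA right and lines for the mean ± SD (n = 3). *Trac* and both V sums lie lower in each Nc1Bio library than in each BirA library (13.2 against 36.7 CPM for *Trac*), whereas the J sums overlap.

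The ratio of V to C reads did not separate the groups. For every 100 *Trac* reads there were 29.9, 92.3 and 36.4 unique V reads in Nc1Bio and 20.1, 40.6 and 40.1 in BirA. Nc1Bio replicate 2, with the fewest *Trac* reads of all libraries, had the highest ratio. J reads per 100 *Trac* reads were 8.12, 8.65 and 6.06 in Nc1Bio and 4.85, 3.49 and 5.54 in BirA, so that all 3 Nc1Bio ratios were above all 3 BirA ratios. The J ratios rest on 9 to 39 J reads per library.

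Among the 6 segments tested on unique reads, edgeR called 0 lower and 0 higher in Nc1Bio, against 0% and 0.00818% of all 12224 genes. At an unadjusted p under 0.05, 1 of 6 (*Trac*) was lower and 0 higher, against 7.66% and 4.31% of all genes. The Nc1Bio libraries lay all below the BirA libraries in 3 of 6 segments (*Trac*, *Trav17* and *Trav16*) against 9.98% of all genes, and all above in 0 of 6 against 8.45%. 5 of 6 had a log2 fold change below 0, against 50.4% of all genes, and the median was -0.79 over the 6 and -0.0026 over all genes. Since a segment passed the filter by its reads in the group where it was higher, these counts describe the 6 tested segments and not all 150. DESeq2 kept the 65 segments with a read and called 1 lower (*Trac*), against 1.37% of the genes to which it gave a p-value. It called 0 higher, against 0.202%. Segments of low count, such as *Trav7-5* with 13 unique reads, got no adjusted p from DESeq2 and could not be called. The 65 and both shares include such rows. edgeR with no filter also called 1 of 65 lower, against 0.697%, and 0 higher, against 0.0528%.

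The 5 tested V segments all lie in the 3′ part of the V array. *Trav17* had 13, 21 and 11 reads in Nc1Bio against 26, 35 and 24 in BirA, with no overlap in either reads or CPM. Its log2 fold change was -0.71 (SE 0.47, adjusted p = 0.582 by edgeR). *Trav16* had 13, 5 and 13 reads in Nc1Bio against 15, 33 and 19 in BirA. Its CPM groups touched closely, at 1.08 CPM in both Nc1Bio replicate 1 and BirA replicate 1, and its log2 fold change was -0.87 (SE 0.59). *Trav14-2* had 1, 11 and 0 reads in Nc1Bio and 7, 18 and 11 in BirA, and *Trav13-2* had 3, 6 and 19 in Nc1Bio and 12, 11 and 17 in BirA. Both overlapped between groups, with log2 fold changes of -1.36 (SE 1.09) and -0.33 (SE 0.73). *Trav18* was the exception in sign, with 11, 17 and 5 reads in Nc1Bio and 1, 18 and 15 in BirA and a log2 fold change of 0.18 (SE 0.89). That sign turned without BirA replicate 1 (-0.34) and without Nc1Bio replicate 2 (-0.22).

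On total reads the picture was wider but no firmer. Of 13 segments tested, 12 had a log2 fold change below 0 against 50.4% of the 13095 genes tested, with a median of -0.71. edgeR called 0 lower and 0 higher, against 0% and 0.00764% of all genes, and 2 were lower at an unadjusted p under 0.05 (*Trav11d* and *Trac*) and 0 higher, against 7.32% and 4.15%. The Nc1Bio libraries lay all below the BirA libraries in 6 of 13 and all above in 0 of 13, against 9.98% and 8.42% of all genes. On total reads too a segment passed the filter by its reads in the group where it was higher. These counts therefore describe the 13 tested segments and not all 150. DESeq2 called 2 of 91 lower, again *Trav11d* and *Trac*, against 1.32%, and 0 higher against 0.193%. Here too the 91 and both shares include rows of low count without an adjusted p, which could not be called.

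**Figure D2:**
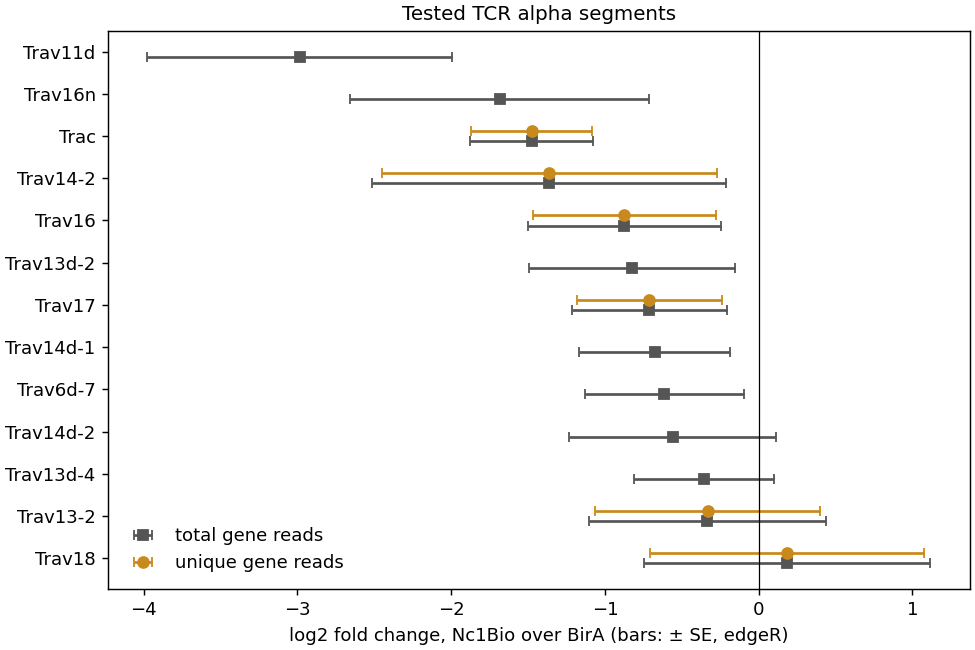
Log2 fold change of Nc1Bio over BirA (x axis) for the 13 segments tested on total gene reads (squares) and the 6 tested on unique gene reads (circles), with bars of 1 SE from edgeR. 12 of 13 lie left of 0, *Trav11d* lies farthest at -2.98, and *Trav18* lies right of 0.

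The largest fold difference among the tested segments was that of *Trav11d*. It had 10, 2 and 7 total reads in Nc1Bio against 126, 33 and 14 in BirA, and no unique read in any library. Every BirA library was above every Nc1Bio library, but BirA replicate 1 alone held most of the reads. edgeR gave a log2 fold change of -2.98 (SE 0.99) at an adjusted p of 0.348, and DESeq2 an adjusted p of 0.0320. Without BirA replicate 1 it was -1.60 in edgeR. *Trav11*, the copy in the 3′ part, was listed at 0 in Nc1Bio and had 2, 0 and 0 reads in BirA. Together both copies took 5.41%, 0.930% and 3.66% of all V total reads in Nc1Bio and 23.3%, 8.25% and 3.14% in BirA. The share in BirA replicate 3 (exact 95% interval 1.73 to 5.21%) lay within the range of the Nc1Bio shares, while the share in BirA replicate 1 (19.8 to 27.0%) lay far above it.

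*Traj18*, the J segment joined to *Trav11* in the iNKT receptor, had 1, 0 and 0 reads in Nc1Bio and 10, 6 and 0 in BirA. The same 2 BirA libraries that were highest in *Trav11d* carried its reads, and BirA replicate 3 had none. Over the groups this was 13.9-fold more in BirA, with a counting interval of 2.16 to 584. The segments of the other invariant receptor, that of mucosal-associated invariant T cells, were at the limit of detection: *Trav1* had 2, 0 and 0 reads in Nc1Bio and 1, 1 and 2 in BirA, and *Traj33* had 0 in all 6 libraries. Of 8 genes known from iNKT and other innate-like T cells, 7 were tested. All 7 had a log2 fold change below 0 (median -1.97), 0 were called, and none of the 8 was at 0 in the libraries as a whole. At an unadjusted p under 0.05 by edgeR, 5 of 7 were lower and 0 higher, against 7.66% and 4.31% of all genes. Their summed level was 143, 93.3 and 141 CPM in Nc1Bio and 443, 258 and 231 CPM in BirA. *Zbtb16*, the gene of the iNKT transcription factor PLZF, stood at 2.33, 0.834 and 3.70 CPM in Nc1Bio and at 14.8, 6.40 and 3.75 CPM in BirA. Within BirA most genes of the list were, like *Trav11d*, highest in replicate 1. These were *Zbtb16*, *Il2rb* (264, 53.8 and 64.7 CPM), *Klrb1c* (36.2, 8.71 and 2.71 CPM), *Tbx21* (12.8, 2.24 and 2.78 CPM), *Xcl1* and, by little, *Rora* (24.1, 23.7 and 20.3 CPM). The exceptions were *Gata3* (82.0, 149 and 123 CPM) and *Slamf1* (8.30, 13.8 and 13.2 CPM), which were lowest there. The part of such cells in the reads of these segments was not tested.

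**Figure D3:**
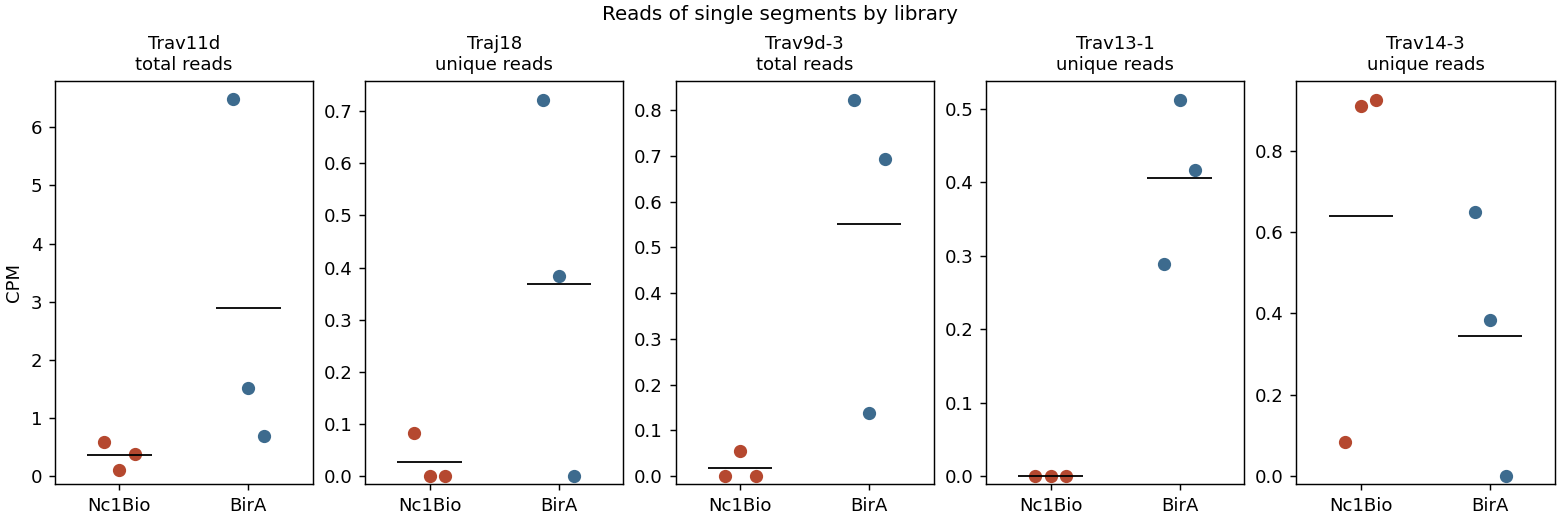
CPM of 5 segments, each point 1 library and each line the mean of 3, with Nc1Bio left and BirA right, on linear axes of their own. *Trav11d* and *Traj18* are highest in BirA replicate 1 (leftmost BirA point), *Trav9d-3* and *Trav13-1* are at or near 0 in all Nc1Bio libraries, and *Trav14-3* is high in 2 Nc1Bio libraries.

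Along the V array, unique reads came mostly from its 3′ end, next to the J segments. Split by rank into 3 parts, the array held in its 3′ part of 32 segments 56, 90 and 72 unique reads in Nc1Bio and 148, 154 and 130 in BirA, with a log2 ratio of -0.80 and no overlap. This was 94.9%, 93.8% and 100% of the unique V reads in Nc1Bio and 91.4%, 94.5% and 85.5% in BirA, so that the shares overlapped. The 5′ part held 3, 1 and 0 unique reads in Nc1Bio and 3, 3 and 10 in BirA, and the middle part 0, 5 and 0 in Nc1Bio and 11, 6 and 12 in BirA. Total reads filled in the rest of the array. The 5′ part had 90, 74 and 70 total reads in Nc1Bio and 335, 161 and 219 in BirA (log2 ratio -1.43), and without *Trav11d* still 80, 72 and 63 in Nc1Bio and 209, 128 and 205 in BirA. The middle part had 38, 50 and 46 total reads in Nc1Bio and 66, 81 and 96 in BirA (log2 ratio -0.66). All 3 parts were lower in every Nc1Bio library on total reads.

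The reads that only the total column holds sat almost entirely on one set of copies. The centre of the V array was duplicated in evolution, and the extra copies carry the letters d and n in their names. The 40 V segments with no such letter had 660 unique and 676 total reads over all libraries, the 30 d copies had 14 unique and 1235 total reads, and the 28 n copies had 30 unique and 76 total reads. Of the 1283 reads that the total column added, 95.2% were on d copies. Among 23 pairs of d and n copies of the same name, 17 had total reads on d and none on n, 0 the reverse, 5 had both and 1 had neither, with 1020 reads on d and 21 on n. *Trav12d-3* had 0 total reads in each Nc1Bio library and 4, 2 and 3 in BirA, while *Trav12n-3*, of the same coding sequence, had 0 everywhere. The d copy lies first along the chromosome, so a total count of a d copy is read here as the sum over its look-alikes and not as use of that copy. Of the 41 V segments with a sequence, 29 shared at least 1 window of 49 bases with another, in 27 pairs, 2 of which were identical throughout.

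**Figure D4:**
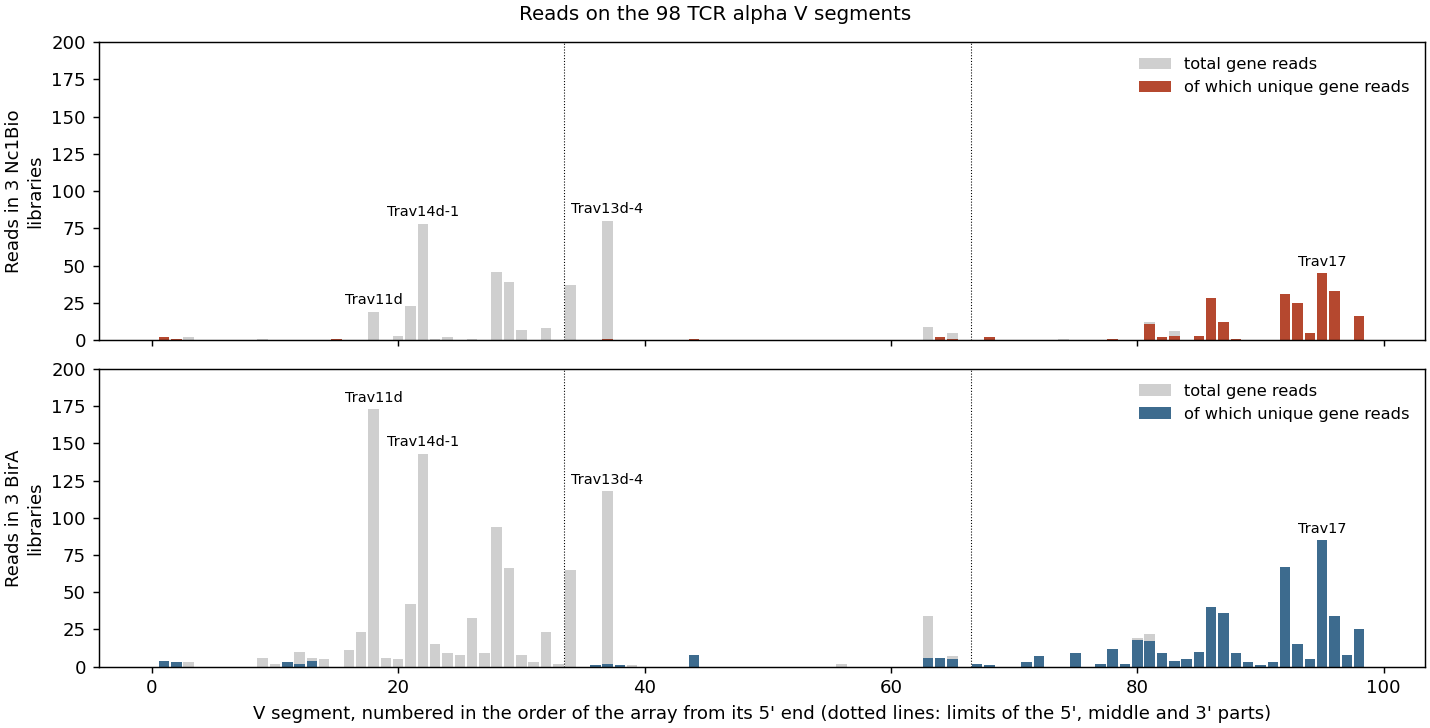
Reads in 3 libraries (y axis) on each of the 98 V segments in the order of the array (x axis), Nc1Bio above and BirA below, with total gene reads in grey and the unique ones among them in colour. Colour is nearly confined to the right-hand part, grey to the left and centre, and *Trav11d* has 19 reads in Nc1Bio and 173 in BirA, where it is the tallest bar.

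The most abundant of these multi-copy segments were less far apart between the groups than *Trav11d*. *Trav14d-1* had 33, 18 and 27 total reads in Nc1Bio and 55, 31 and 57 in BirA (log2 fold change -0.68, SE 0.49), with no unique read. *Trav13d-4* had 22, 25 and 33 total reads in Nc1Bio and 25, 46 and 47 in BirA (-0.35, SE 0.46). *Trav13d-2* had 6, 15 and 25 total reads in Nc1Bio and 14, 44 and 36 in BirA (-0.82, SE 0.67). In all 3 the groups overlapped. *Trav6d-7* had 12, 12 and 13 total reads in Nc1Bio and 19, 18 and 28 in BirA, and *Trav16n* had 3, 6 and 0 in Nc1Bio and 11, 11 and 12 in BirA, neither with overlap. Their log2 fold changes were -0.61 (SE 0.52) and -1.68 (SE 0.97), and neither was called.

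Some rare V segments were hardly seen in Nc1Bio and were seen in BirA. They were singled out after their reads had been seen and are given as a description. *Trav13-1* had 0 unique reads in each Nc1Bio library and 4, 8 and 6 in BirA, at least 5.22-fold lower in Nc1Bio when the floor of 3 reads is set over the group. *Trav9d-3* had 0, 1 and 0 total reads in Nc1Bio and 16, 3 and 14 in BirA, and *Trav6d-6* had 0 in each Nc1Bio library and 19, 1 and 3 in BirA. Both are scattered widely within BirA. By family, the 13 *Trav7* segments had 1, 0 and 0 total reads in Nc1Bio and 25, 6 and 6 in BirA, and the 10 *Trav9* segments 0, 4 and 0 in Nc1Bio and 41, 8 and 21 in BirA. The large *Trav13* and *Trav14* families were closer, with log2 ratios of -0.66 and -0.57 on total reads and overlapping groups. In all, 38 of 98 V segments had a total read in Nc1Bio and 64 in BirA, and 2 had one in Nc1Bio alone against 28 in BirA alone. Fewer reads in a group also leave fewer segments seen.

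*Trav14-3* had its higher mean in Nc1Bio. It had 1, 12 and 12 unique reads in Nc1Bio and 9, 6 and 0 in BirA, the groups overlapping. *Trav23*, the last V segment of the array, had 6, 7 and 3 reads in Nc1Bio and 5, 8 and 12 in BirA, or 0.421 ± 0.165 against 0.569 ± 0.241 CPM (SD, n = 3 each), and overlapped. Of the 91 segments with a read, 15 had the higher mean total CPM in Nc1Bio and 76 in BirA. Many of these rested on few reads, and BirA had the greater depth, with 3 reads at 0.0487 CPM against 0.0560 CPM in Nc1Bio. A share over all genes of like count was not taken.

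J reads were few in every part of the array. The 17 J segments of the 5′ part, nearest to the V segments, had 12, 5 and 12 reads in Nc1Bio and 13, 5 and 10 in BirA, a log2 ratio of 0.24 with full overlap. The middle part had 3, 4 and 0 reads in Nc1Bio and 12, 3 and 9 in BirA. The 3′ part, next to *Trac*, had 1, 0 and 0 reads in Nc1Bio and 14, 6 and 2 in BirA, of which *Traj18* made up 1 in Nc1Bio and 16 in BirA. Apart from *Traj18*, the 3′ part had 0 reads in each Nc1Bio library and 4, 0 and 2 in BirA. The share of J reads on the 5′ part was 75.0%, 55.6% and 100% in Nc1Bio and 33.3%, 35.7% and 47.6% in BirA, with all Nc1Bio libraries above all BirA libraries. This separation rested on *Traj18*: without it the shares were 80.0%, 55.6% and 100% in Nc1Bio and 44.8%, 62.5% and 47.6% in BirA, and the groups overlapped. The exact 95% intervals of single libraries were wide, and that of Nc1Bio replicate 2 (21.2 to 86.3%) held all 3 BirA shares. No test was made of this share, which was seen in the data first.

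*Traj49* in the 5′ part was the most abundant J segment, with 10, 2 and 6 reads in Nc1Bio and 4, 1 and 8 in BirA. Its groups overlapped. Per kilobase it stood at 7.78 CPM in Nc1Bio and 4.88 CPM in BirA, values that the short span of J rows makes unfit for comparison with *Trac*. It made up 62.5%, 22.2% and 50.0% of J reads in Nc1Bio and 10.3%, 7.14% and 38.1% in BirA. Without *Traj49* the share of the 5′ part was 33.3%, 42.9% and 100% in Nc1Bio and 25.7%, 30.8% and 15.4% in BirA, on 6 or 7 reads per Nc1Bio library. The ends of the array were almost silent: *Traj59* had 0, 1 and 0 reads in Nc1Bio and 0, 1 and 0 in BirA, and *Traj2* had 0 in all. 10 of the 51 J segments had a read in Nc1Bio and 21 in BirA, with 24 in either.

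**Figure D5:**
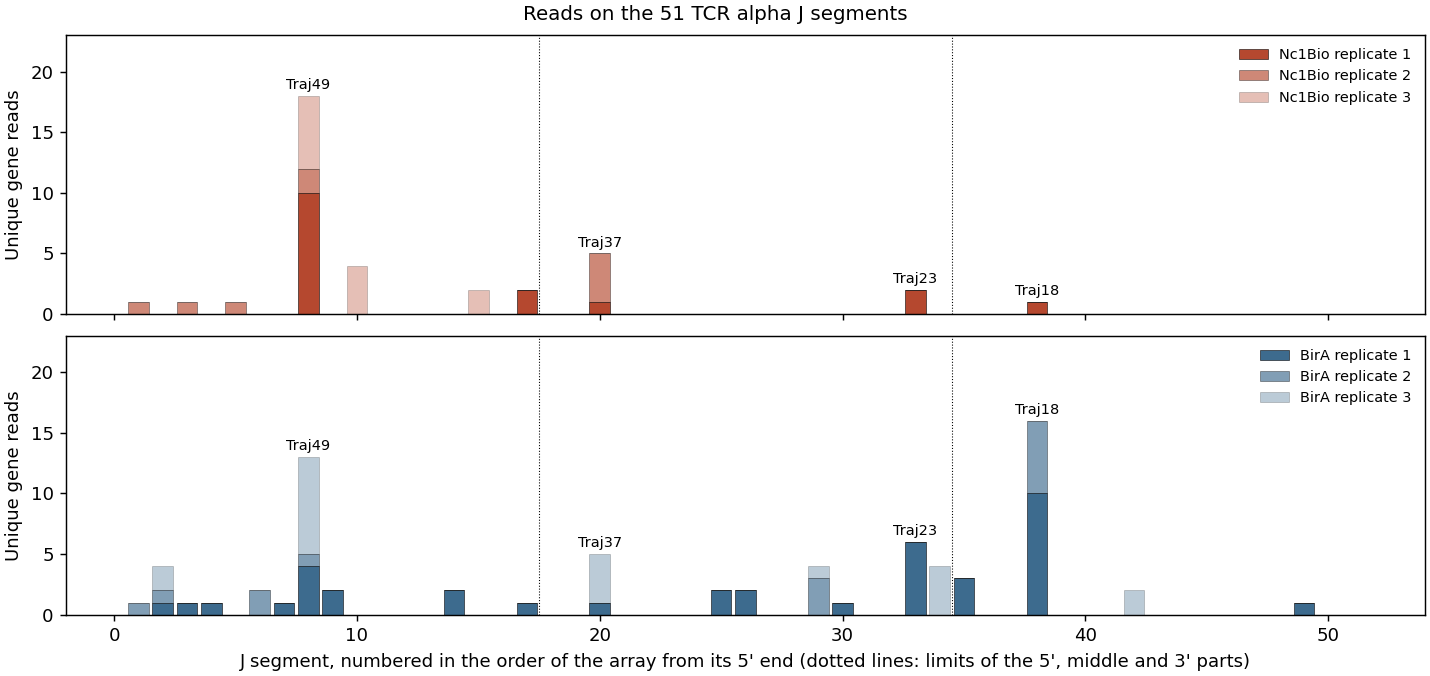
Unique gene reads (y axis) on each of the 51 J segments in the order of the array (x axis), Nc1Bio above and BirA below, with the 3 libraries of a group stacked in shades. *Traj49* is the tallest bar in Nc1Bio (18 reads), *Traj18* the tallest in BirA (16 reads), and right of the second dotted line Nc1Bio has a single read.

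Genes around and beside the segments were compared with them. Of the 6 neighbours on the V side, 5 had a log2 fold change below 0 but with a median of -0.15, and none had an unadjusted p under 0.05. On the C side *Dad1*, a housekeeping gene beside *Trac*, stood at a log2 fold change of -0.08 (SE 0.13), whereas *Mmp14*, a membrane metalloproteinase gene farther out, had -1.74 (SE 0.54, adjusted p = 0.304 by edgeR). The median of the 6 genes on that side was -0.15. Of 13 genes for V(D)J joining, 9 had a log2 fold change above 0, with a median of 0.13 and 0 called. *Rag1* and *Rag2*, which encode the recombinase and have few unique reads in these tables, had log2 fold changes of 0.56 (SE 0.30) and 0.56 (SE 0.23) on total reads, and *Dntt*, the gene of the enzyme that adds N nucleotides at joins, had 0.33 (SE 0.12) on unique reads. Among 7 partners of the alpha chain, *Ptcra*, which encodes the pre-TCR alpha chain that pairs with beta before alpha exists, had 1.20 (SE 0.29, adjusted p = 0.222 by edgeR). The beta constant genes *Trbc1* and *Trbc2* had -0.12 (SE 0.17) and -0.06 (SE 0.11), and the median of the partners was -0.06. None of these genes was called.

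The delta elements inside the locus were not called either. All 5 tested V segments shared by alpha and delta (of 10) had log2 fold changes below 0, with a median of -1.17. So had all 4 tested delta elements (of 10), with a median of -0.72 and 0 called in either list. At an unadjusted p under 0.05 by edgeR, 4 of 5 and 2 of 4 were lower, against 7.66% of all genes. In either list 0 were higher, against 4.31%. The shared V segments summed to 7.36 to 12.03 CPM in Nc1Bio and 19.85 to 21.07 CPM in BirA, with no overlap. The sums of the delta elements overlapped, at 54.2 to 88.6 CPM in Nc1Bio and 78.4 to 124 CPM in BirA. *Trdc*, the delta constant region, stood at 36.4, 35.1 and 50.3 CPM in Nc1Bio and 40.7, 66.3 and 67.3 CPM in BirA, overlapping between groups, where the log2 fold change was -0.52 (SE 0.22), while that of *Trac* was -1.48 (SE 0.39). The difference between them was not tested.

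Marker lists of other cells differed in direction. All 5 red cell genes had log2 fold changes above 0 (median 0.50), and of 6 granulocyte genes 4 were below and 2 above 0, with the overlapping sums given above. All 8 markers of mature single-positive thymocytes, in which the alpha chain is complete, had log2 fold changes below 0 (median -1.10), with sums of 774, 732 and 796 CPM in Nc1Bio and 1374, 1046 and 1179 CPM in BirA. The 8 markers of double-positive thymocytes summed to 667, 618 and 699 CPM in Nc1Bio and 619, 677 and 665 CPM in BirA, which overlapped (5 below and 3 above 0, median log2 fold change -0.11). The 7 gamma-delta markers were all below 0 (median -0.82), at 1162 to 1509 CPM in Nc1Bio and 1591 to 2060 CPM in BirA. B cell markers stood at 80.8, 52.6 and 65.9 CPM in Nc1Bio and 326, 122 and 117 CPM in BirA, with BirA replicate 1 highest as for *Trac*. Macrophage and dendritic cell markers were at 48.5 to 99.5 CPM in Nc1Bio and 82.0 to 217 CPM in BirA, and NK cell markers at 288 to 469 CPM in Nc1Bio and 580 to 657 CPM in BirA. Most of the NK sum was *Gzma*, at 274, 374 and 468 CPM in Nc1Bio and 554, 637 and 654 CPM in BirA. Each of the other NK cell genes overlapped between the groups. No marker in these lists was called by edgeR. At an unadjusted p under 0.05, 6 of 8 mature single-positive, 5 of 7 gamma-delta and 5 of 5 B cell markers were lower, against 7.66% of all genes. So were 1 of 8 double-positive, 1 of 6 macrophage and dendritic cell and 1 of 3 tested NK cell markers. It was 0 for red cell and granulocyte genes. In each of these lists 0 were higher, against 4.31%. The part of such cells in the lower *Trac* and V reads of Nc1Bio was not tested.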

How the data were processed

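Poly(A) RNA from 3 Nc1Bio and 3 BirA libraries was sequenced as single reads. The methods of the study name cutadapt, STAR on GRCm38 and featureCounts, although the layout of the tables is not that of featureCounts and nothing read here names the program that wrote them. The deposited values used are raw counts, namely unique gene reads and total gene reads per gene, with no normalization. Neither column is defined in the labels or methods, and the use of strand was not given there either. 2 segments overlap an antisense row. RPKM and TPM columns were not used.

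Unique gene reads were the main column. Genes passing filterByExpr (12224) were scaled by TMM and tested in edgeR 4.0.16 (quasi-likelihood, legacy mode, R 4.3.3) with genotype as the single term, adjusted by Benjamini-Hochberg over all genes, and called at an adjusted p under 0.05. The SE was taken as the log2 fold change over the root of F. For CPM, library sizes were scaled by TMM, separately for both columns. Both arrays were split into 3 parts by rank, and lengths are annotated spans. Pairs of libraries differed by a chi-square per degree of freedom of 26.3 to 90.2, so none was a duplicate. The steps were tested on simulated counts.

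Alternatives were total gene reads, RLE scaling, no filter, a minimum of 1 CPM in 3 libraries, voom of limma 3.58.1, DESeq2 1.42.0 with and without the threshold of the study, a replicate block, each library left out, and d and n copies added together. DESeq2, no filter and copies added together on total reads, and libraries left out on total reads, were chosen after seeing the data. Named were *Trac*, the tested segments, those of invariant receptors, the array ends, and the 3 segments each with the most reads below the filter, the most total reads without a unique read, and the largest excess of total reads. Others named were chosen after their values were seen. The members and lists were chosen with earlier results of these data known.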

Additional observations from a re-analysis of the deposited data

How the results depend on the processing

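Depth limited the tests, since 144 of 150 segments fell below the filter on unique reads, and several values rested on BirA replicate 1. The number of segments called lower was 0 in the main fit. It was 1 in DESeq2, in edgeR without the low-count filter, in DESeq2 by the criteria of the study (adjusted p below 0.01, absolute log2 fold change above 0.5) and on total gene reads with no low-count filter, and 2 with DESeq2 on total gene reads. It stayed at 0 under the other 19 alternatives, and the number called higher was 0 under all 24. The log2 fold change of *Trac* became past the threshold at -1.47 with no filter (adjusted p = 0.0313), at -1.48 with DESeq2 on unique (0.000859) and on total reads (0.00128), and at -1.47 on total reads with no filter (0.0341). The other 19 left it uncalled and none turned its sign. With one library left out it ran from -1.68 to -0.98. Likewise *Trav17* ran from -0.99 to -0.52, *Trav16* from -1.11 to -0.53, *Trav14-2* from -4.05 to -0.79, *Trav13-2* from -1.35 to 0.076 and *Trav18* from -0.34 to 0.62. The signs that turned were that of *Trav13-2* without Nc1Bio replicate 1 (0.076), and that of *Trav18* without Nc1Bio replicate 2 (-0.22) or BirA replicate 1 (-0.34). *Trav11d* on total reads ran from -3.52 to -1.60, and was called only by DESeq2 among its 8 alternatives (-3.01, adjusted p = 0.0320). The log2 ratios of the summed reads with one library left out ran from -1.06 to -0.76 for V, from -1.12 to -0.26 for J and from -1.68 to -0.98 for C, all within 1 SD. Why these values moved was not tested. The replicate numbers did not pair the libraries: the deviations of same-numbered libraries correlated at 0.34, 0.12 and -0.14 over 12224 genes, and 2 of 6 libraries correlated best with their own number. With the replicate block *Trac* had a log2 fold change of -1.44 (adjusted p = 0.130) and 0 segments were called in either direction.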

Other observations

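2 rows annotated as V genes within the alpha locus carry other names and were not among the 150 segments. *B230359F08Rik* had 6, 10 and 12 unique reads in Nc1Bio and 16, 20 and 27 in BirA, so that its groups did not overlap in reads. *C920008G01Rik* had no unique read, and 6, 2 and 0 total reads in Nc1Bio and 5, 2 and 15 in BirA, which overlapped. *Gm30214*, which lies antisense over *Trav13d-3*, had 7, 8 and 21 total reads in Nc1Bio and 16, 12 and 23 in BirA.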
